A study of Homo sapiens with 8 samples.

Results

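The comparison described here is the effect of EPZ-6438, an inhibitor of the histone methyltransferase EZH2, in MT-2 cells that also received the DNA demethylating agent OR21. MT-2 is an established T cell line that carries HTLV-1, the retrovirus that causes adult T cell leukaemia (ATL). Each difference is the log2 value on the array of cells given both compounds (Comb) minus that on the array of cells given OR21 alone. The members are the transcript probe sets with a gene symbol, 17709 of the 21448 transcript probe sets on the array, and they stand for 17687 symbols. MT-2 cells given both compounds had 100 nM OR21 and 500 nM EPZ-6438, and those given OR21 alone had 100 nM. Untreated MT-2 cells (control) and MT-2 cells given 500 nM EPZ-6438 alone (EPZ) completed the line. The other line of the study, MT-1, derived from ATL, had 500 nM OR21 with or without 2500 nM EPZ-6438, so the doses of the lines differed. MT-1 cells were also left untreated or given 2500 nM EPZ-6438 alone. Exposure lasted 96 h in all, with each compound added at seeding and again at 48 h. The study asked how the combined agents act on gene expression. There was 1 array for each line and treatment, 8 in all. No condition was replicated and the precision is limited by that, so no difference below has a replicate error or a test.

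EZH2 is the catalytic subunit of the Polycomb repressive complex PRC2, which methylates lysine 27 of histone H3 and keeps genes in a repressed state, among them regulators of development. EPZ-6438 (tazemetostat) blocks this activity. Methylation of cytosine in CG dinucleotides is a separate mark of silent promoters, and it is kept through cell division by DNMT1 with UHRF1. Both marks have been studied in ATL as means by which HTLV-1-infected T cells silence genes.

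The level of 7672 members could be compared, because it lay above background on at least 1 of the arrays. A level above background on only 1 array also had to exceed the background of the other array. Background was the level under which 95% of an array's negative controls lay, 7.56 for OR21 and 7.64 for Comb. Of these members 7087 lay above background on both arrays. For 365 the OR21 level was not above background, and the difference is given as "at least" a value against that background. For 220 the Comb level was not above it, and the difference is given as a value "or lower". The other 10037 have no difference given. The array holds log2 values, so a difference of 1 is 2-fold. Control and EPZ arrays had backgrounds of 7.80 and 7.43, and the array medians of the 4 MT-2 arrays ran from 6.55 to 6.61.

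The labelled cell type was checked against marker genes. Of 10 T cell markers on the array, CD4, CD5 and ZAP70 lay above background on every MT-2 array, while CD2, CD3D, CD3E, CD3G, CD28 and LCK lay above it on none. Of 10 markers of activated and ATL-type T cells, 9 lay above background on all 4 arrays and FOXP3 on none. IL2RA, the alpha chain of the interleukin-2 receptor, had levels from 16.58 to 16.96. None of the myeloid, NK cell, erythroid, epithelial or endothelial markers chosen for this check exceeded background on an MT-2 array. Of 4 B cell markers 2 did on the OR21 array and 1 on the Comb array, and of 4 fibroblast markers 1 did on each. Wider marker lists held genes that could be compared, 5 of 28 for other blood lineages and 5 of 22 for epithelial, endothelial and fibroblast cells. Among these, NKG7 and PRF1 of NK cells and KRT7 and KRT8 of epithelia lay above background on all 4 MT-2 arrays. The cells thus carried an activated T cell profile in which part of the receptor complex was not detected.

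With EPZ-6438 on top of OR21, 146 members were higher by 1 or more (1.90% of those compared) and 22 were lower by 1 or more (0.287%). The differences leaned to the higher side throughout the range, with 59.7% above 0 and a median of 0.09. The middle of the distribution was narrow, since the 5th and 95th percentiles were -0.51 and 0.76. A background at the 99th percentile left 73 higher and 6 lower. Of the genes described below that were chosen by the rule for named genes and lay beyond 1, LRRC8C, OGFRL1, HMG20B, SDCCAG8, VAV1, SYTL2, SSX1, CXCR5, IL13, HLA-DPB1, HOXC8, CDKN2A, CTBS and DCBLD2 then had no value, and ABLIM1, MRPL38, WDR76, PFDN2, GTSF1, GBP2, MEIS2, APC and PDK2 were within 1. Genes outside that rule, among them CCL5, KCNK15, KCNQ3, NALCN, LCE1B, STAT4 and MAN2A2, were not followed under other settings. With cyclic loess ULBP2 (0.96), GATA4 (0.98), APC (0.98) and S100A10 (0.95) were within 1. With no background level 301 of 17709 members were higher (1.70%) and 154 lower (0.870%), which moved the share of higher among those beyond 1 from 86.9% to 66.2%. A difference of 1.5 or more was reached by 21 members upward and 2 downward. Among the 2197 positive-control probe sets, 2067 could be compared, and 24 of them were higher by 1 or more (1.16%) and 28 lower (1.35%), with a median of -0.01. Of the 612 negative controls 39 could be compared, with 5 higher by 1 or more (12.8%) and 4 lower (10.3%). The share of positive controls that were lower therefore exceeded that of the members, while the share that were higher was smaller. In bulk RNA, more cells with a transcript and more RNA per cell cannot be told apart.

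Chemokines, the secreted proteins that direct leukocyte migration, held the highest differences. CCL2, a ligand that attracts monocytes, had levels of 4.93 in control, 6.73 with OR21, 5.70 with EPZ-6438 and 11.70 with both. Only the Comb array was above background, which makes CCL2 at least 4.13 higher, or at least 17.5-fold. XCL2 had levels of 7.62, 10.21, 7.96 and 13.04 in the same order. It was 2.83 higher with both compounds than with OR21, a fold of 7.09. XCL2 and its paralog XCL1 encode lymphotactins, the ligands of XCR1. XCL1 had levels of 8.14, 10.56, 8.47 and 13.11, a difference of 2.55 (5.85-fold). In both paralogs the Comb array stood highest, the OR21 array next, and the control and EPZ arrays lay close together. The paralogs are near-identical in sequence, so that their probe sets may share signal and are not independent.

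CCL20, the ligand of CCR6, had a pattern of the same order at another size, with levels of 4.83 in control, 9.56 with OR21, 5.46 with EPZ-6438 and 10.94 with both. Its difference was 1.39. CCL5, which attracts T cells, had levels of 7.74, 7.66, 8.71 and 9.14, so that here the arrays with EPZ-6438 were the higher pair, and the difference was 1.48. Its OR21 level lay just above the background of 7.56, and its control level was under that array's background of 7.80. CCL3L3, a copy of the CCL3 gene, had levels of 9.28, 10.26, 11.39 and 11.81, a difference of 1.55. For CCL3 itself they were 13.15, 13.78, 15.00 and 14.70, a difference of 0.93 against 1.85 for EPZ-6438 without OR21. The copies may share probe signal. CXCL13, a B cell attractant, went another way across the arrays: 13.26 in control, 11.08 with OR21, 13.22 with EPZ-6438 and 12.12 with both. It was 1.04 higher with both than with OR21, yet lower on both arrays with OR21 than on those without. CCL1 was 0.87 higher and CXCL10 differed by -0.06. Of 33 chemokines on the array 12 could be compared, 7 of them higher by 1 or more and 0 lower, beside 1.90% and 0.287% of all members. The median over those 12, and over the 10 above background on both arrays, was 1.21, beside 0.09 over all members. Over all 33 as deposited, with no background level, the median was 0.098, beside 0.019 over all 17709 members. A member that entered only through a high Comb level had to be higher, which applied to CCL2 and to CXCL12 (at least 0.20).

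**Figure D1:**
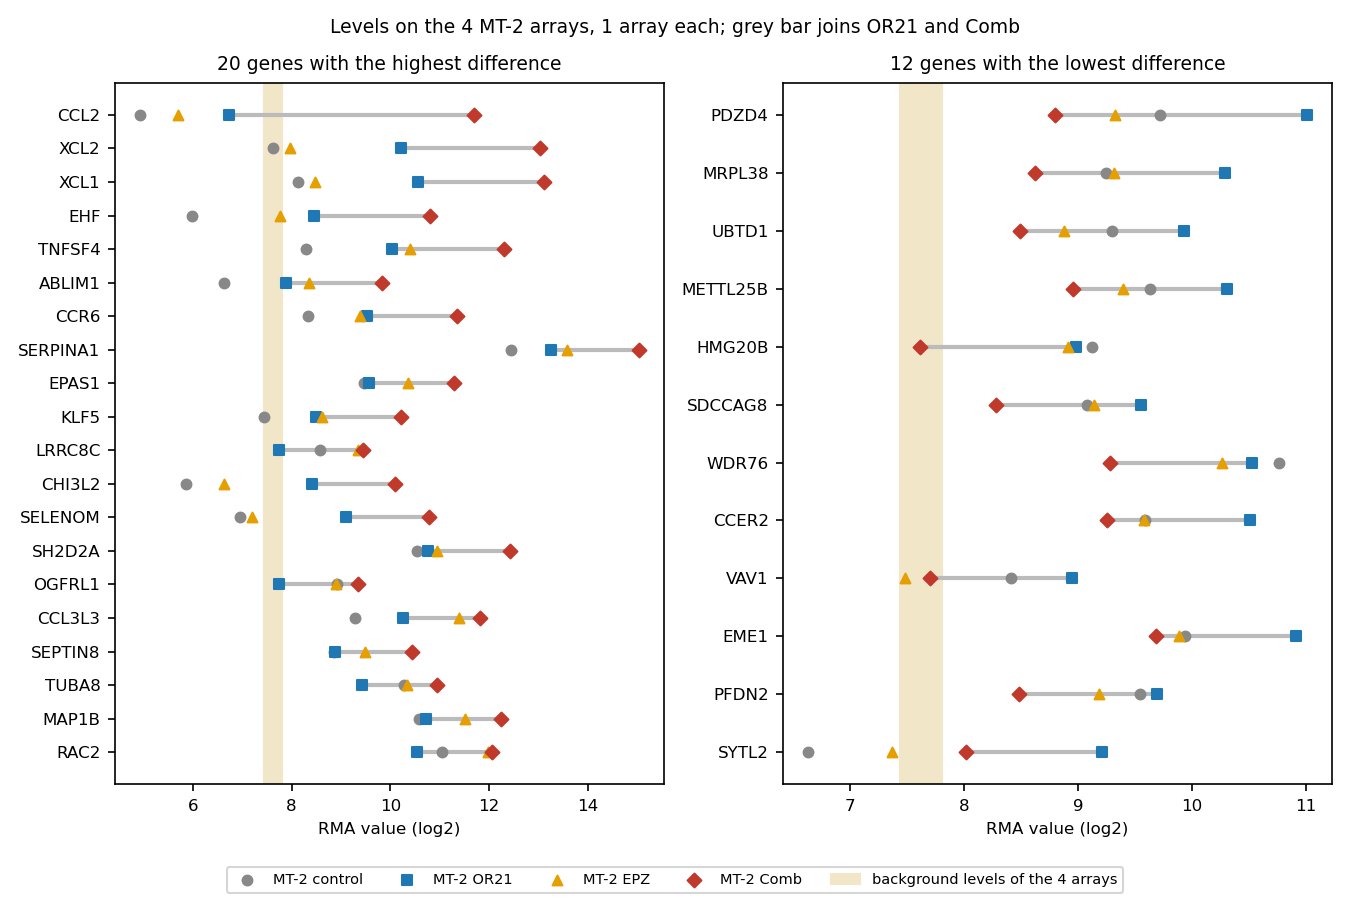
Levels (log2, horizontal axis) of the genes with the highest and lowest differences on the 4 MT-2 arrays, 1 point per array, with the colour giving the treatment. CCL2, XCL2 and XCL1 reach 11.70 to 13.11 on the Comb array, and PDZD4, the gene with the lowest difference, is at 8.80 there.

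The chemokine receptor CCR6 and the TNF superfamily ligand TNFSF4 were among the 20 highest. CCR6, the CCL20 receptor, had levels of 8.33 in control, 9.54 with OR21, 9.38 with EPZ-6438 and 11.36 with both, a difference of 1.82 (3.53-fold). CXCR5, the CXCL13 receptor, had 6.07, 7.17, 6.58 and 8.75 and was at least 1.19 higher, but it entered only through its Comb level and could only come out higher. The Comb array was the highest for both receptors. Of 6 chemokine receptors compared 2 were higher by 1 or more (1.90% of all members compared), and the median was 0.51, or 0.45 over the 5 above background on both arrays. In the same list, CCR4 (0.45), CXCR4 (0.23) and CCR7 (0.14) differed by less. TNFSF4, the OX40 ligand that costimulates T cells, had levels of 8.29, 10.03, 10.40 and 12.30. Each compound alone stood above the control, and both together stood 2.27 above OR21 (4.82-fold). Among 18 ligands and receptors of the TNF superfamily TNFSF4 was the 1 member beyond 1, with CD40 at 0.78, CD70 at 0.67 and TNFRSF12A at -0.39, and the median was 0.39. Of 9 cytokines compared, IL13, a type 2 cytokine, was 1.28 higher, with levels of 5.64, 7.79, 5.82 and 9.08. IL10, an inhibitory cytokine, was 0.64 higher, and IL6 0.40 higher.

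Genes of T cell identity and receptor signalling were mixed in direction. Of 18 compared, 12 were above 0 and 6 below, beside 59.7% above 0 over all members. In this list 2 were higher by 1 or more and 0 lower, beside 1.90% and 0.287%, and the median was 0.39 (0.37 over the 15 above background on both arrays). CD5, an inhibitory coreceptor of the T cell receptor, had levels of 10.64 in control, 10.78 with OR21, 11.44 with EPZ-6438 and 12.22 with both, a difference of 1.44. LEF1, a transcription factor of the Wnt pathway active in T cell development, had 9.84, 9.82, 10.77 and 11.08, a difference of 1.26. For both genes the OR21 array differed little from control, and the arrays with EPZ-6438 were the higher pair. ZAP70, the kinase recruited to the receptor, was 0.73 higher and FYN at least 0.79 higher. FYN entered only through its Comb level and could only come out higher. CD247, the zeta chain of the receptor complex, differed by -0.63 and TBX21, the T-bet transcription factor, by -0.64. SH2D2A, a T cell-specific adaptor, had levels of 10.54, 10.77, 10.95 and 12.43, a difference of 1.66. RAC2 had 11.05, 10.55, 11.98 and 12.06, a difference of 1.51. VAV1, the exchange factor that activates Rac proteins downstream of the receptor, was on the other side, with levels of 8.41, 8.95, 7.48 and 7.70 and a difference of -1.24. The summed level of the T cell markers was 12.91 on the OR21 array and 13.70 on the Comb array, and its part in these differences was not tested.

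Antigen presentation differed by less. Of 13 HLA class II genes compared, 10 were above 0 and 1, HLA-DPB1, was higher by 1 or more. Over all members compared 59.7% were above 0, 1.90% were higher by 1 or more and 0.287% lower. HLA-DPB1 had levels of 8.68 in control, 8.04 with OR21, 8.55 with EPZ-6438 and 9.15 with both. HLA-DQA1 was 0.80 higher and HLA-DRB1 0.71 higher. The list's median was 0.34. In class I presentation TAPBP, which loads peptide onto HLA molecules, was 1.07 higher, and the median over 14 genes was 0.26. HLA-C was 0.57 higher and PDIA3 differed by -0.26. HLA genes are close in sequence and their probe sets may share signal. Interferon-stimulated genes lay near the median of all members, at 0.17 over 19, with GBP2 (1.15) beyond 1 and PARP9 at -0.36.

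Transcription factors were represented among the highest. EHF, an ETS factor of epithelia, had levels of 5.99 in control, 8.45 with OR21, 7.77 with EPZ-6438 and 10.80 with both, a difference of 2.35 (5.09-fold). EPAS1, the hypoxia-inducible factor HIF-2 alpha, had 9.48, 9.56, 10.36 and 11.30, a difference of 1.74 (3.33-fold). KLF5, a zinc finger factor, had 7.43, 8.50, 8.62 and 10.22, a difference of 1.73. The Comb array was highest for all 3. EPAS1 lay near its control level on the OR21 array, whereas EHF was above background on the OR21 array and not on the control array. Among other genes with large differences, SERPINA1, the protease inhibitor alpha-1 antitrypsin, had levels of 12.45, 13.26, 13.58 and 15.04, a difference of 1.78. ABLIM1, an actin-binding protein, had 6.63, 7.89, 8.36 and 9.84, a difference of 1.94. MAP1B, a microtubule-associated protein, had 10.58, 10.73, 11.51 and 12.25, a difference of 1.53. The cytoskeletal genes SEPTIN8 (1.55) and TUBA8 (1.53) were of similar size.

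Classical Polycomb targets mostly could not be compared. Of 97 developmental regulators on the array 83 had no difference given for want of level over background, and of 23 HOX genes 19 had none. Among the 14 regulators compared 2 were higher by 1 or more and 0 lower, beside 1.90% and 0.287% of all members, with a median of 0.24 beside 0.09. MEIS2, a homeobox cofactor of HOX proteins, had levels of 9.30 in control, 8.69 with OR21, 9.74 with EPZ-6438 and 9.94 with both, a difference of 1.26. GATA4, a factor of heart and gut development, had 11.82, 12.08, 12.17 and 13.11, a difference of 1.03. TBX2 differed by -0.53. HOXC8 was at least 1.27 higher, with 7.38 on the OR21 array and 8.83 on the Comb array, and HOXC9 was 0.62 higher. HOXC8 entered only through its Comb level and could only come out higher. Tumour suppressors with reported silencing in T cell leukaemia had a median of 0.29 over 21, with 3 higher by 1 or more (1.90% over all members). CDKN2A, which encodes the cell cycle inhibitor p16, had levels of 8.17, 8.13, 8.96 and 9.47, a difference of 1.34. BACH2, a repressor of lymphocyte differentiation, was 1.08 higher, and APC, a scaffold of the Wnt pathway, 1.04 higher. At the 99th-percentile background APC was at 0.63. BCL2L11, which encodes the death-promoting protein BIM, differed by -0.74.

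Cancer-testis and germline genes, whose promoters are known to be silenced by DNA methylation in most somatic cells, were split in direction. Of 12 compared, 6 were above 0 and 6 below, beside 59.7% above 0 over all members. In this list 2 were higher by 1 or more and 0 lower, beside 1.90% and 0.287%. The median was 0.08 (-0.062 over the 11 above background on both arrays). It was 0.63 with the background at the 99th percentile and 0.21 at the 90th. SSX1 had levels of 5.58 in control, 8.10 with OR21, 5.68 with EPZ-6438 and 9.49 with both, a difference of 1.39. GTSF1, a factor of the piRNA pathway, had 3.59, 8.61, 3.21 and 9.79, a difference of 1.18. Both genes were above background only on the arrays with OR21. SSX2B was 0.93 higher, and since SSX genes are near-identical their values may share signal. BRDT, a bromodomain protein of the testis, differed by -0.72.

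Transcripts of the targeted machineries differed by under 1. EZH2 differed by -0.19, SUZ12, another PRC2 subunit, by -0.30, and KDM6B, a demethylase of the same lysine, by 0.69. Over 23 genes of PRC2, PRC1 and the demethylases, 12 were above 0 and 11 below, beside 59.7% above 0 over all members. Their median was 0.01 and 0 were beyond 1, beside 1.90% higher and 0.287% lower over all members. These are transcript levels, and neither the methylation of H3 nor the enzyme's activity was measured. In the DNA methylation machinery UHRF1 had levels of 12.16 in control, 11.55 with OR21, 11.60 with EPZ-6438 and 10.61 with both, a difference of -0.94. HELLS, a chromatin remodeller needed for DNA methylation, had 10.74, 10.67, 10.92 and 9.79, a difference of -0.88. DNMT1 differed by -0.39. MBD4, a DNA glycosylase that acts at methylated CG sites, was 0.98 higher, and the median over 18 genes was 0.00.

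The lists of DNA replication, core histone and ribosome biogenesis genes had more members below 0 than above and none beyond 1. Over all members compared 59.7% were above 0, 1.90% were higher by 1 or more and 0.287% lower. DNA replication genes had 9 above 0 and 19 below, with a median of -0.19, and MCM2, a subunit of the replicative helicase, was at -0.77. Core histone genes had 8 above and 19 below, with a median of -0.18. Ribosome biogenesis genes had 6 above and 14 below, also with a median of -0.18. Mitosis and spindle genes had 17 above and 20 below, with a median of -0.0087. The CDK inhibitors and G1 cyclins had a median of 0.22 over 14, with CDKN2A beyond 1. Among stress and signalling lists, the unfolded protein response had 19 above and 2 below with a median of 0.33, and metallothioneins, small metal-binding proteins, had a median of 0.50 with MT1G at 1.12. In the S100 and annexin list S100A10, the annexin A2 partner, had levels of 12.70, 14.01, 14.01 and 15.01, a difference of 1.01. Reference genes had a median of -0.02 over 14.

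**Figure D2:**
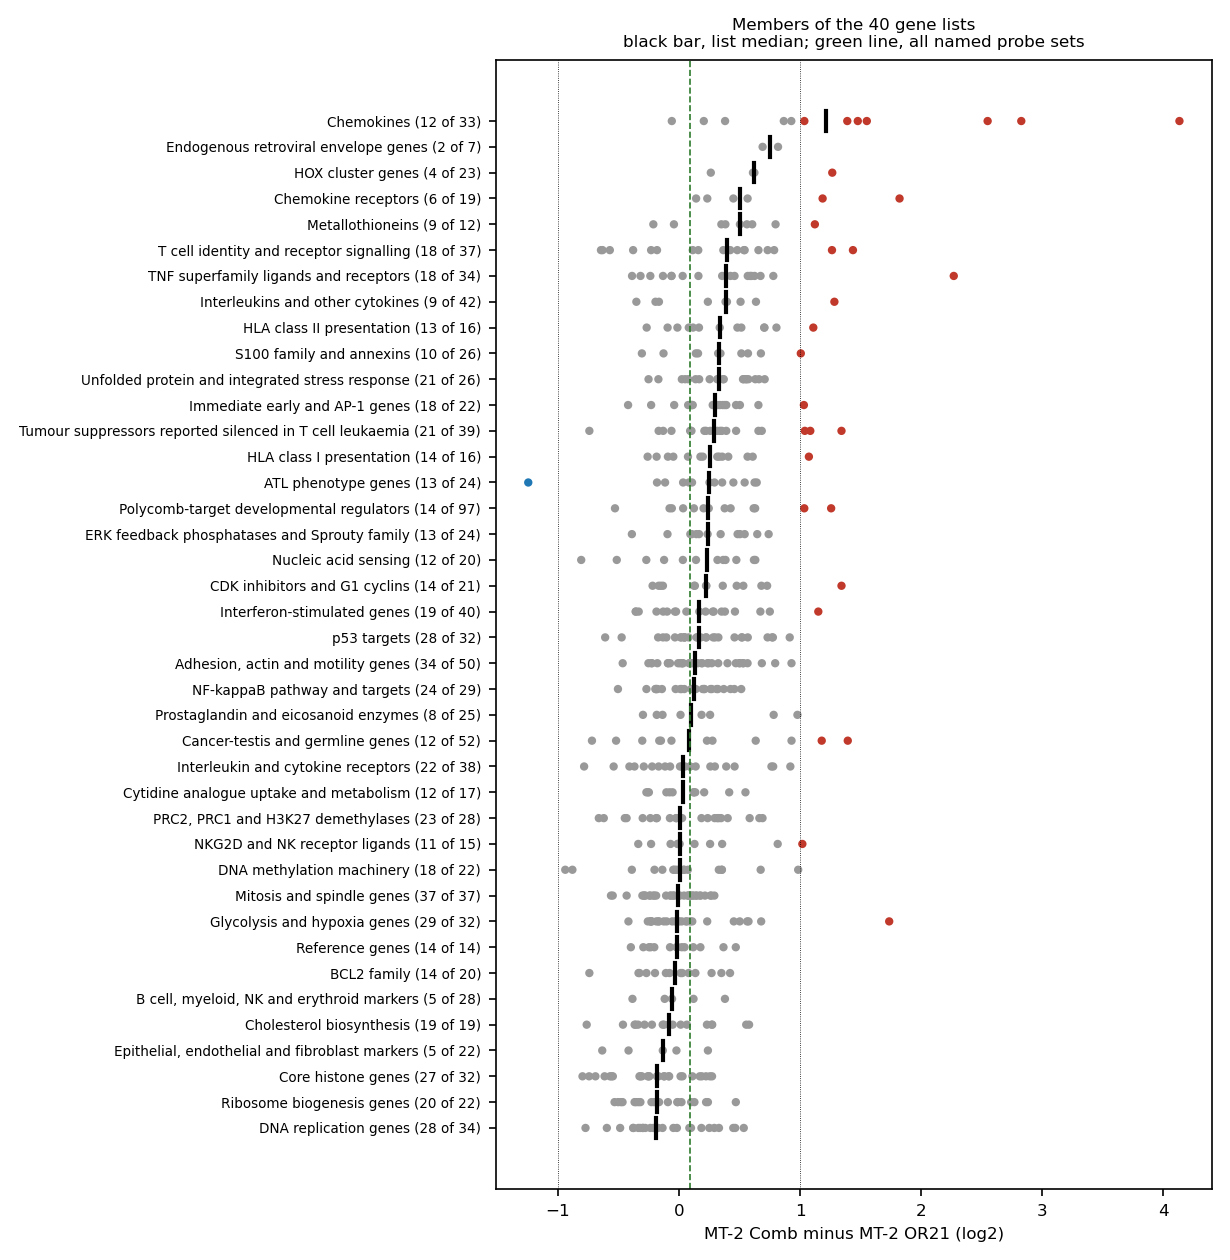
Difference of each compared member (points) and the median (bar) for the gene lists, MT-2 Comb minus MT-2 OR21 (log2, horizontal axis), with the list named on the vertical axis. Chemokines have the highest median, 1.21, and DNA replication genes the lowest, -0.19.

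The lower side was small. PDZD4 had levels of 9.72 in control, 11.01 with OR21, 9.32 with EPZ-6438 and 8.80 with both, a difference of -2.21 (4.63-fold lower). MRPL38, a protein of the mitochondrial ribosome, had 9.25, 10.29, 9.31 and 8.62, a difference of -1.67. EME1, the partner of the MUS81 endonuclease, had 9.93, 10.91, 9.88 and 9.68, a difference of -1.23. In these 3 genes the OR21 array was the highest of the 4, and the Comb array was below control. The OR21 array was the highest in 17 of the 22 lower members and the Comb array the lowest in 19. HMG20B, a subunit of the LSD1 demethylase complex, differed by -1.34 or lower, SDCCAG8, a centrosomal protein, by -1.28, and PFDN2, a subunit of the prefoldin chaperone, by -1.21. WDR76 was at -1.25 and SYTL2, a protein of vesicle transport, at -1.20. Only 6 of the 21 with a value against control were also lower by 1 or more on the Comb array than on the control array.

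Among the 146 higher members the Comb array was the highest of the 4 MT-2 arrays in 132, and the OR21 array was the lowest in 66. Against control, 91 were higher by 1 or more on the Comb array. OR21 alone differed from control by 1 or more upward in 12 of the 128 with a value and by 1 or more downward in 9. These comparisons share the OR21 or the Comb array with the difference that chose the members. OGFRL1 is an example of the last kind, with 8.93 in control, 7.73 with OR21, 8.91 with EPZ-6438 and 9.35 with both. LRRC8C, a subunit of the volume-regulated anion channel, had 8.58, 7.75, 9.35 and 9.45, a difference of 1.70. Its neighbour LRRC8D, another subunit, was 1.33 higher. Of 3868 pairs of adjacent genes with values for both, 3 had both members higher by 1 or more, namely LRRC8C with LRRC8D, XCL2 with XCL1, and CCNG2 with CXCL13. Singly, 1.90% of all members compared were higher, and whether 3 pairs exceed what that share gives was not tested. The XCL genes may share probe signal.

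EPZ-6438 without OR21 (EPZ minus control, which shares no array with the main difference) had fewer members beyond 1. Of 7319 compared, 32 were higher by 1 or more (0.437%) and 10 lower (0.137%). Of the 146 members higher on top of OR21, 123 had a value without it, and 17 of these were higher by 1 or more there (13.8%). The direction was the same in 108 of the 123 (87.8%), beside 63.6% of the 7148 members with both values. A member above background only on the EPZ array could only come out above 0 in EPZ minus control. XCL2, ABLIM1 and KLF5 are among such members in the 108. The median over these 123 was 0.52 without OR21 and 1.16 with it, and 118 of them were larger with OR21. Since the members were chosen by the value with OR21, a smaller value in the other comparison follows in part from that choice. Seen from the other end, all 32 members higher with EPZ-6438 alone were above 0 on top of OR21, 17 by 1 or more (53.1%), with a median of 1.03. The 17 shared members are 11.6% of the 146. Of the 10 lower with EPZ-6438 alone 9 had a value, 7 of them below 0 and 0 lower by 1 or more. Over all 7148 members the correlation across probe sets, which are not independent replicates, was 0.46 (Pearson) and 0.42 (Spearman).

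The genes with the highest values for EPZ-6438 alone included some with a similar and some with a smaller value on top of OR21. TNFSF4 had 2.11 alone and 2.27 with OR21, KCNJ13, a potassium channel, 1.45 and 1.33, LHFPL6 1.32 and 1.44, and BACH2 1.31 and 1.08. RGS2, a regulator of G protein signalling, had 1.58 alone and 0.41 with OR21, and ODF2L 1.66 and 0.31. Of the lowest, RFFL had -1.27 alone and -0.76 or lower with OR21. LBH had -1.15 and -0.63, and CUEDC2 -1.09 and 0.33. SOX11 had -1.18 and -0.08 or lower.

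**Figure D3:**
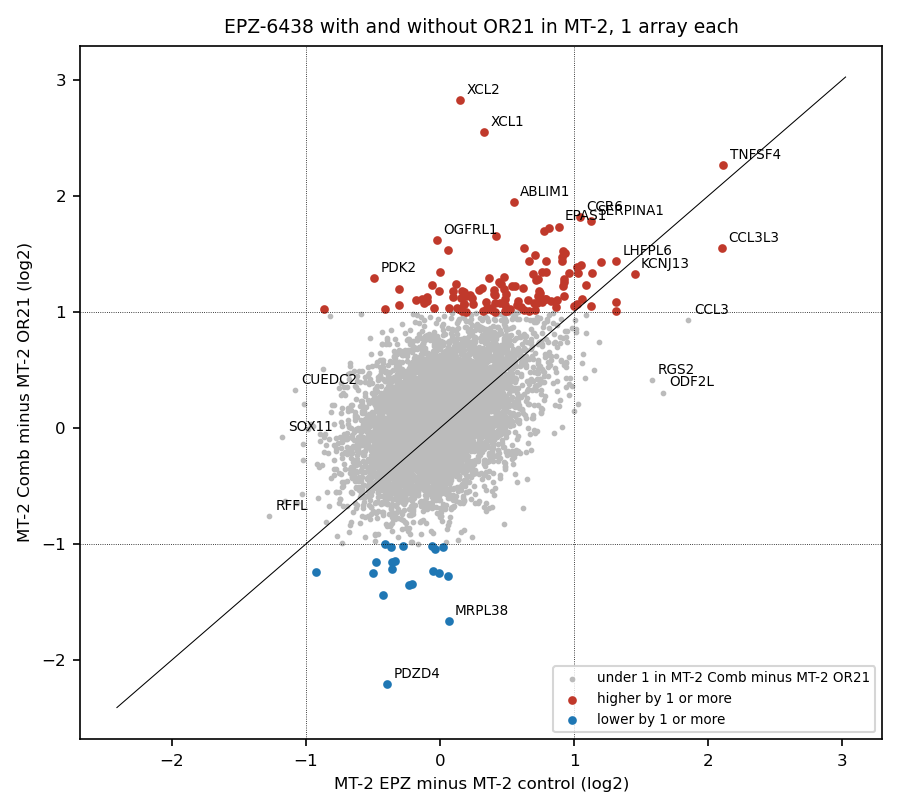
Difference made by EPZ-6438 on top of OR21 (vertical axis, log2) against the difference made without OR21 (horizontal axis, log2), MT-2 cells, 1 point per probe set with a value in both (7148). XCL1 and XCL2 stand high on the vertical axis with 0.33 and 0.15 on the horizontal one, and TNFSF4 is above 2 on both.

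The excess, the difference on top of OR21 minus that without it, was computed for the 6769 members above background on all 4 MT-2 arrays. Its median was 0.09 and its SD across members 0.37, and 72 members had an excess of 1 or more and 22 of -1 or less. XCL1 had the highest at 2.22. IGSF8, an immunoglobulin superfamily member, had 1.79, PDK2, a kinase that inhibits pyruvate dehydrogenase, 1.78, and OGFRL1 1.64. GOSR2, a SNARE protein of the Golgi, had 1.58 and CTBS, a lysosomal chitobiase, 1.51. Against control, the Comb array was 4.97 higher for XCL1, but only 0.53 for IGSF8, 0.27 for PDK2 and 0.11 for GOSR2. For these last genes, IGSF8, PDK2 and GOSR2, each compound alone lay below control. The lowest were PDZD4 at -1.81, MRPL38 at -1.73, ODF2L at -1.36 and SDCCAG8 at -1.34. Each excess rests on 4 single arrays and carries the error of all of them.

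In MT-1, at other doses, more members were beyond 1 for the same step (Comb minus OR21), 412 of 8568 higher (4.81%) and 123 lower (1.44%). EPZ-6438 without OR21 gave 28 of 8053 higher there (0.348%) and 14 lower (0.174%). Of the 146 members higher in MT-2, 102 had a value in MT-1, 88 of them above 0 (86.3%), beside 59.97% with the same direction over the 7012 members compared in both lines. Higher by 1 or more in both lines were 19 of the 102 (18.6%), and 2 were lower by 1 or more in MT-1. A member above background in MT-1 only on the Comb array could only come out higher there. CHI3L2, S100A10 and LAMC1 are such members in the 19. The 19 include EPAS1, with 1.74 in MT-2 and 1.45 in MT-1, CHI3L2, a chitinase-like protein, with 1.68 and at least 2.95, and ABLIM1 with 1.94 and 1.16. LEF1 had 1.26 and 1.37, CDKN2A 1.34 and 1.14, and the adhesion protein DCBLD2 1.28 and 1.68. S100A10 had 1.01 in MT-2 and at least 4.96 in MT-1, and ULBP2, a ligand of the NKG2D receptor, 1.02 and 1.54. By contrast CCL2, XCL1, XCL2, CCL20, CCR6 and TNFSF4 had no value in MT-1, where neither array gave a level to compare. CCL5 had 0.04 and CD5 -0.32 there. TUBA8 was 1.53 higher in MT-2 and differed by -1.78 in MT-1. Of the 22 members lower in MT-2, 21 had a value in MT-1 and 11 of these were below 0. The lowest in both lines were ATP1B3, a subunit of the sodium pump, with -0.88 and -0.93, MARVELD3, a tight junction protein, with -0.87 or lower and -0.82, WDR89 with -0.80 and -0.77, and GCSH, a protein of glycine cleavage, with -0.77 and -1.08.

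**Figure D4:**
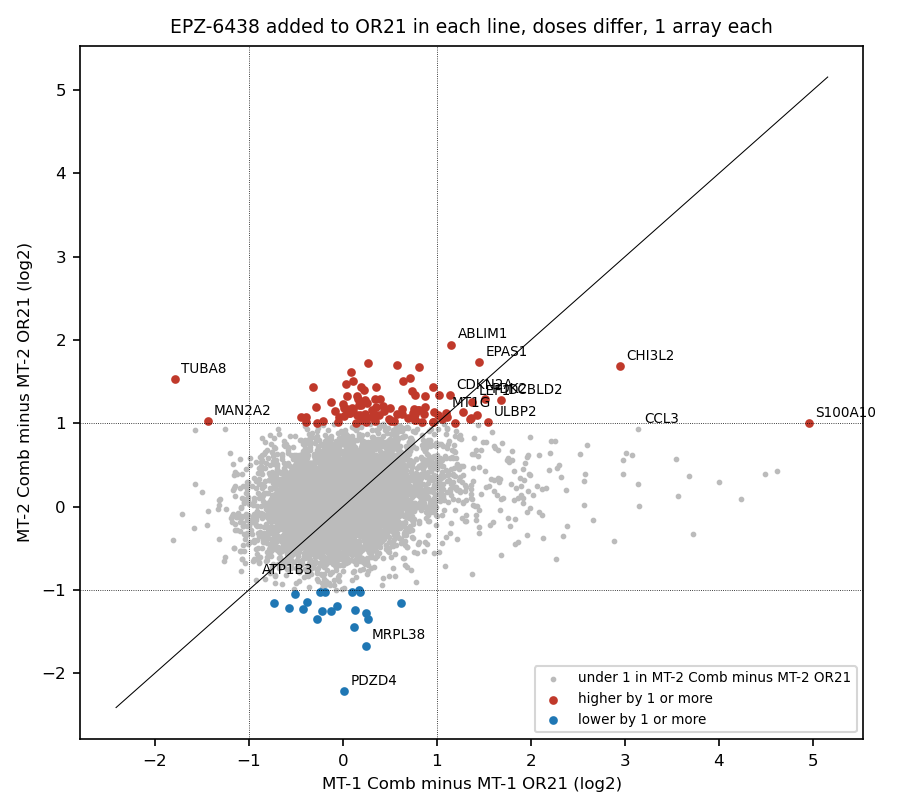
Difference made by EPZ-6438 on top of OR21 in MT-2 (vertical axis, log2) and in MT-1 (horizontal axis, log2), 1 point per probe set with a value in both lines (7012). EPAS1 and LEF1 are above 1 in both, and TUBA8 is at 1.53 in MT-2 and -1.78 in MT-1.

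Promoter sequence was not used in choosing the members, and it bears on the marks involved, because DNA methylation acts at CG dinucleotides and PRC2 is known to bind promoters rich in them. RefSeq promoters (GRCh38.p14) from 250 bases before to 50 after a start were matched for 117 of the 146 higher members and for 6323 of the 7504 members compared that were neither higher nor lower by 1. A promoter was called CpG-poor where its ratio of observed to expected CG was under 0.6 or its GC content under 50%. Of the higher members 36 (30.8%) had a CpG-poor promoter, beside 854 (13.5%) of those that were neither. Over all members compared and matched the share was 13.8%. Over all 35116 windows in the reference it was 53.1%, but that counts each start and includes genes that could not be compared. Higher members had a median of 22.3 CG in 300 bases and the others 26. Among the 32 higher with EPZ-6438 alone, 9 of 27 matched (33.3%) were. Members with a level under 10 on the OR21 array gave 27.6% of 87 for the higher and 15.2% for the others. Of the 22 lower members 15 were matched, and 4 of those (26.7%) had a CpG-poor promoter. With fewer than 80% matched the check is void for them. CpG-poor promoters were therefore not shown to go with the higher side more than with the lower. The TATAAA motif, searched on the coding strand within 60 bases before the start, was in 4 of the 117 (3.42%) and in 1.60% of the members that were neither. Counted per start, it was in 2.78% of all windows.

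**Figure D5:**
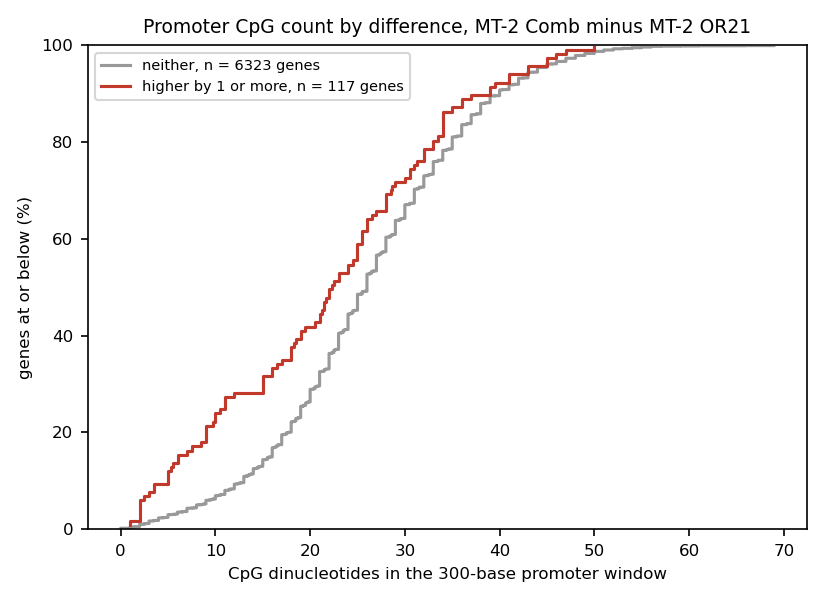
Number of CG dinucleotides in the 300-base promoter window (horizontal axis) and the percentage of genes at or below that number (vertical axis), for members higher by 1 or more and for members that were neither. The curve of the higher members lies to the left at low counts, with 30.8% CpG-poor against 13.5%. Lower members are not drawn, and 26.7% of the 15 matched were CpG-poor.

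The 250 bases before the start of 6 members show the range, given 5' to 3' on the gene's strand with every CG in capitals. XCL2, TNFSF4 and CCL20 are shown as immune ligands with few CG, EPAS1 and LRRC8C as higher members with a dense promoter, and MRPL38 as a lower member. The windows are chr1:168543998-168544247 (minus strand) for XCL2, chr1:173205533-173205782 (minus) for TNFSF4, chr2:227813592-227813841 (plus) for CCL20, chr2:46297157-46297406 (plus) for EPAS1, chr1:89632870-89633119 (plus) for LRRC8C and chr17:75904885-75905134 (minus) for MRPL38, all in GRCh38.p14.
XCL2: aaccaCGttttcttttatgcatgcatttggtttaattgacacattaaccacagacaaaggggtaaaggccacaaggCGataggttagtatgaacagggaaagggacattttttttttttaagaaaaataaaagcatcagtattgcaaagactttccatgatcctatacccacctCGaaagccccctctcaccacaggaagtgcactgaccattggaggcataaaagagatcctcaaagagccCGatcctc
TNFSF4: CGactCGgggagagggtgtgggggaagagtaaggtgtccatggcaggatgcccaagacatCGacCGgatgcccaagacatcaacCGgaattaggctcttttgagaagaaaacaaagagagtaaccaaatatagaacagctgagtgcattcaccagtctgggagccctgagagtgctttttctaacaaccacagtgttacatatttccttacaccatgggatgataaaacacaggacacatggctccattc
CCL20: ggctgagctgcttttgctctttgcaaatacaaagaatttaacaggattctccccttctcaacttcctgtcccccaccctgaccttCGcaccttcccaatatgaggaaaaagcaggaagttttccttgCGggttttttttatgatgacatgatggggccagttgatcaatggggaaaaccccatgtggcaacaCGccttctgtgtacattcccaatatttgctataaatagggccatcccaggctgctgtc
EPAS1: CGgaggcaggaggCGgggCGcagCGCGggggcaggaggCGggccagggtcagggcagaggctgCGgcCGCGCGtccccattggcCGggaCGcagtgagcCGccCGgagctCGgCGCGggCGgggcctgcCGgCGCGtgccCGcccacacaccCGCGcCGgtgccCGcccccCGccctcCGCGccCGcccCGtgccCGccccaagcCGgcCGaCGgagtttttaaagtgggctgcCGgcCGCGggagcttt
LRRC8C: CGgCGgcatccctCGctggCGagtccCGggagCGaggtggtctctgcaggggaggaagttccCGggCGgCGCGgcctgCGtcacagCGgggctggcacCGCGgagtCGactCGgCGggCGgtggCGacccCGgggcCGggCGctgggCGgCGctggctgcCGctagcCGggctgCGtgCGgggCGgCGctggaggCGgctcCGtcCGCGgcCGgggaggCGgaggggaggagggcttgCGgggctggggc
MRPL38: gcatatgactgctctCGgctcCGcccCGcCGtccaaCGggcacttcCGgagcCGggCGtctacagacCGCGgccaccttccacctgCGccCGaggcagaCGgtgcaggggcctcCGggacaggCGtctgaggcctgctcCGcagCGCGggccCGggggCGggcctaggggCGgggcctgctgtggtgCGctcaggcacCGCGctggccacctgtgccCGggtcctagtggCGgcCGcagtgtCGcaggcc
The stretch of XCL2 holds 4 CG, that of TNFSF4 5 and that of CCL20 3. EPAS1 holds 38, LRRC8C 37 and MRPL38 28. High differences thus occurred with promoters of either kind, and no methylation or histone mark was measured at these sites.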

How the data were processed

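RNA of 8 cell cultures was hybridised to 1-colour Affymetrix arrays. The deposited table holds log2 values that the authors made with RMA, per the submitters' processing notes. RMA corrects background, normalizes between arrays and summarises probes. The table does not state its log base, which is taken from RMA, and its values run from 2.14 to 18.91. For the RMA version, the build of the array and any rescaling, nothing is stated by the labels or the table. The platform annotation named 17709 transcript probe sets with 1 symbol and 3739 with none.

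Differences were computed with Python 3.11.15 and pandas 2.3.3, bounded by the 95th percentile of the 612 negative controls of each array. Simulated data with large changes and little noise were used to check the code, and they give no error rate for these arrays. A size of 1 (log2) was the threshold. Alternatives were array centring, cyclic loess (limma 3.58.1, R 4.3.3), other background levels and other sizes. Named genes were the 20 highest and 12 lowest, up to 4 members of each of 40 lists with the largest differences, the 8 highest and 4 lowest with EPZ-6438 alone, the 6 highest and 4 lowest in the excess, and the 6 and 4 ranked by the smaller difference of the lines. Further genes were chosen after their values were seen. The members and lists were chosen with earlier results of these data known. Promoter matches use RefSeq, with the mean over starts of a gene. A gene with several starts was CpG-poor where most of them were, and shares for genes with 1 start or a low level were added after seeing the data.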

Additional observations from a re-analysis of the deposited data

Results flagged for a closer look

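TUBA8, an alpha tubulin, was 1.53 higher in MT-2 and differed by -1.78 in MT-1 for EPZ-6438 on top of OR21, and MAN2A2, an enzyme of glycan processing in the Golgi, differed by 1.02 and -1.44. They stand out because the lines went opposite ways by 1 or more. MAN2A2 lay near background on 1 array of each line. Its level was 7.75 on the MT-2 OR21 array (background 7.56) and 7.44 on the MT-1 Comb array (background 7.19). The difference between the lines was not tested, the doses differed, and each line has 1 array a side.

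Among the 3739 transcript probe sets with no gene symbol, which the comparison leaves out, 1135 could be compared. Of these 13 were higher by 1 or more (1.15%) and 8 lower, and the highest difference was 1.74.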

How the results depend on the processing

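Among the genes chosen by the rule for named genes, none that was beyond 1 before or after centring or loess changed direction, where a value was left. Centring moves all genes by nearly the same small amount. Another background level cannot reverse a direction, so it does not bear on this. With the background at the 99th percentile 73 members were higher and 6 lower, and at the 90th percentile 199 were higher and 37 lower. With no background level the counts were 301 and 154, and 66.2% of the members beyond 1 were higher instead of 86.9%. A size of 1.5-fold gave 772 and 249 (75.6% higher), and 1.5 on the log2 scale gave 21 and 2. Centring gave 140 and 24, cyclic loess 127 and 30. The median difference was 0.089 as reported, 0.077 centred and 0.048 with loess. List medians that moved at the 99th percentile were cancer-testis genes to 0.63, chemokines to 1.47, the TNF superfamily to 0.58, HLA class II to 0.50, interferon-stimulated genes to 0.28, Polycomb targets to 0.38 and epithelial, endothelial and fibroblast markers to 0.053. At the 90th percentile cancer-testis genes moved to 0.21, chemokines to 0.93, interleukins to 0.078, HLA class II to 0.44 and prostaglandin enzymes to -0.061. With no background level, where most members are near background, chemokines had 0.10, chemokine receptors 0.11, interleukins 0.022, the TNF superfamily 0.10, HLA class II 0.50, NKG2D ligands 0.13, interferon-stimulated genes -0.029, nucleic acid sensing 0.087, retroviral envelope genes 0.30, PRC2 and PRC1 0.21, cytidine metabolism -0.078, HOX genes -0.014, Polycomb targets 0.030, ATL genes 0.13, T cell genes 0.12, S100 genes 0.034 and prostaglandin enzymes -0.053. These settings change which members are counted. For genes with 1 listed promoter start, 33.3% of the higher members and 12.3% of the others were CpG-poor. At the 99th percentile 58 named genes had no value left, among them OGFRL1, LRRC8C, IL13, HLA-DPB1, SSX1, CXCR5, HOXC8, CDKN2A and VAV1, and 139 kept one. Of these 12 were no longer beyond 1: ABLIM1 (0.76), MRPL38 (-0.69), UBTD1 (-0.33), METTL25B (-0.71), WDR76 (-0.93), CCER2 (-0.91), PFDN2 (-0.10), GTSF1 (0.71), GBP2 (0.59), MEIS2 (0.86), APC (0.63) and PDK2 (0.59). With loess 4 were not, ULBP2 (0.96), GATA4 (0.98), APC (0.98) and S100A10 (0.95), and with centring S100A10 (0.99) was not. No paired analysis was possible because each group has 1 array, and no array could be left out. Signal over background limits CCL2, CXCR5 and HOXC8 to bounds.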

Other observations

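Beyond the lists, the higher members held further groups, picked after their values were seen and so given as values only. Apart from KCNJ13, these genes were not followed under other background levels. Ion channel subunits included KCNK15 at 1.49, KCNQ3 at 1.41 and KCNJ13 at 1.33, all potassium channels, and NALCN, a sodium leak channel, at 1.04. KCNJ13 had 10.71 in control, 10.91 with OR21, 12.16 with EPZ-6438 and 12.24 with both, so that the arrays with EPZ-6438 formed the higher pair. KCNQ3 had 8.30, 8.01, 9.35 and 9.42, with the same pairing. The epidermal cornified envelope genes LCE1E and LCE1B were 1.12 and 1.12 higher, LCE1E with levels of 12.65, 12.92, 12.81 and 14.04. LCE1B had 7.08, 7.78, 7.21 and 8.89, above background only on the arrays with OR21. Lymphocyte genes outside the lists were SLAMF1, a costimulatory receptor, at 1.23, STAT4, the transducer of interleukin-12, at 1.18, and S1PR1, the receptor that guides exit from lymph nodes, at 1.03. SLAMF1 had 8.11, 9.28, 9.20 and 10.51, with each compound alone above control and both together highest.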
